A study of Mus musculus with 80 samples.

Results

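The genes P2rx5, Slc36a2 and Slc7a10 encode proteins of the plasma membrane that are in use as surface markers of brown, beige and white adipocytes. They were chosen by name, as published surface markers and by no threshold on their values, and are 3 of the 32764 gene rows in the count data. The study sequenced poly(A) RNA from the brown fat (BAT), the inguinal white fat (iWAT), muscle and liver of male C57BL/6J mice of 4 genotypes, with 5 libraries of each genotype in each tissue and 80 libraries in all. The genotypes were wildtype (WT), FGF21 KO, UCP1 KO and a double knockout (dKO) that lacked both UCP1 and FGF21, all of them whole-body knockouts. One label field of the dKO libraries reads UCP1/FGF12, whereas Fgf21 reads were at 0 to 3 counts in the dKO libraries and Fgf12 reads were at 0 to 21 counts in libraries of all genotypes. All mice, WT included, were raised at 30 °C and at 10 to 12 weeks of age were moved to room temperature and to a high-fat diet for 3 weeks. No label says which libraries came from the same mouse. The edgeR p-values below rest on the spread between libraries of the same group, estimated for each gene over all groups of a fit.

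Brown adipocytes burn fatty acids to make heat through UCP1, white adipocytes store triglyceride, and beige adipocytes are UCP1-positive cells that arise within white depots such as iWAT in the cold. P2rx5 encodes P2X5, a subunit of the P2X family of ion channels that open when ATP binds outside the cell. Slc36a2 encodes PAT2, a carrier that moves glycine, alanine and proline into cells together with protons. Slc7a10 encodes Asc-1, a carrier of small neutral amino acids such as serine, alanine, cysteine and glycine, which needs the heavy chain encoded by Slc3a2 to reach the surface. As published, P2rx5 and Slc36a2 mark brown and beige adipocytes and Slc7a10 marks white adipocytes.

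In the GRCm38 build, P2rx5 (ENSMUSG00000005950.14) lies on chromosome 11 from 73160421 to 73172685 on the plus strand and overlaps no other annotated gene. Slc36a2 (ENSMUSG00000020264.5) lies on the same chromosome from 55158470 to 55185077 on the minus strand, and 2.75% of its 50-base stretches also occur in its relative Slc36a1. Slc7a10 (ENSMUSG00000030495.12) lies on chromosome 7 from 35186385 to 35201114 on the plus strand and overlaps Lrp3, which is read from the other strand. Lrp3 holds 12.9% of the 50-base stretches of Slc7a10, and the strand setting of the counting is not given in the sources used here, so a part of the Slc7a10 counts could be Lrp3 reads. Lrp3 itself was at 13.3 to 34.9 CPM in BAT and at 4.89 to 16.2 CPM in iWAT, against 3.80 to 30.6 CPM and 43.3 to 251.8 CPM for Slc7a10. The overlap therefore matters most for the low BAT values of Slc7a10. The stretch in front of the Slc7a10 start site is shown as the 1 promoter of the 3 genes that was matched, and it belongs to the gene whose fat depots lie in the opposite order to the others. It is the RefSeq sequence of GRCm38.p6 at chr7:35186135-35186384, plus strand, with the GC boxes (GGGCGG on either strand) in capitals.

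Slc7a10: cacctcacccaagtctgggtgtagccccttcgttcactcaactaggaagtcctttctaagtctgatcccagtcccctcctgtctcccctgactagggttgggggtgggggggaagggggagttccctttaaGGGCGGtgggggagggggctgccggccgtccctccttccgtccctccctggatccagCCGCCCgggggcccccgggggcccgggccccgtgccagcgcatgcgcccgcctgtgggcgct

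These 250 bases are 69.6% G or C, against a median of 52.4% over 32851 mouse promoters, and 9.81% of the promoters reach that share. The GC boxes begin 119 and 62 bases before the start site, and 32.74% of all promoters hold such a box. The nuclear receptor half-site AGGTCA, found on either strand of 14.02% of promoters, is not among these letters.

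Each library held between 28691379 and 50380704 counts on genes. Fgf21 had at most 3 counts in any FGF21 KO or dKO library, against 29 to 107 counts in the liver of WT and UCP1 KO mice. Reads over the whole Ucp1 gene were at 3114 to 7337 CPM in BAT of WT and at 519 to 1226 CPM in BAT of UCP1 KO mice, which follows the labels but does not measure the protein. In iWAT the same count was 1.66 to 10.5 CPM in WT and 65.2 to 468 CPM in UCP1 KO libraries. A score of 8 lymph node genes (B and T cell genes, given as their mean log2 CPM) was between 5.72 and 6.64 in 9 of the 20 iWAT libraries and at most 1.11 in the other 11. The 9 were 4 of the FGF21 KO, 2 of the WT, 2 of the dKO and 1 of the UCP1 KO libraries. A score of 10 skeletal muscle genes was above 4 in 8 of the 20 BAT libraries, of which 4 were dKO, 3 were UCP1 KO, 1 was FGF21 KO and none was WT. It was also above 4 in 5 of the 20 iWAT libraries, which were WT replicates 4 (5.14) and 5 (8.83), UCP1 KO replicate 1 (9.54), dKO replicate 1 (4.46) and FGF21 KO replicate 5 (6.92). No gene of either list was at 0 throughout a fat group. Levels below are CPM (counts scaled to a common library total), normalised by the trimmed mean of M values over all 80 libraries, and the results that these scores touch are given beside the values of the libraries concerned.

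In WT mice P2rx5 was highest in BAT, at 117 ± 11.2 CPM (SD, n = 5), followed by muscle at 16.5 ± 1.30 CPM, iWAT at 3.50 ± 0.69 CPM and liver at 0.290 ± 0.198 CPM. Slc36a2 was also highest in BAT of WT mice, at 853 ± 79.3 CPM, and reached 195 ± 39.3 CPM in iWAT. Slc7a10 had the opposite order of the depots, with 191 ± 32.4 CPM in iWAT and 15.6 ± 11.1 CPM in BAT. In liver none of the genes passed 1.10 CPM, and Slc7a10 had 0 to 6 counts per library, too few to be tested. Compared between genes per kilobase of exon, Slc36a2 was the most abundant in BAT of WT mice at 262 CPM per kb, ahead of P2rx5 at 48.9 and Slc7a10 at 7.40 CPM per kb. In WT iWAT Slc7a10 led with 90.2 CPM per kb, ahead of Slc36a2 at 59.9 and P2rx5 at 1.46 CPM per kb. In WT muscle P2rx5 led with 6.89 CPM per kb, against 3.16 for Slc36a2 and 1.93 for Slc7a10.

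Ordered by mean level over the 16 groups, P2rx5 ran from the 4 BAT groups through muscle and iWAT to liver. One iWAT group left its tissue in that order. P2rx5 in iWAT of UCP1 KO mice, at 16.6 ± 6.34 CPM, stood among the muscle groups, whose means were 16.4 to 17.2 CPM. Without the trimmed mean scaling this group lay above all muscle groups, at 22.6 CPM against 13.3 to 14.2 CPM. Of the 15 pairs of neighbouring groups in the order, 12 overlapped in their libraries for P2rx5, 12 for Slc36a2 and 13 for Slc7a10, so that the order holds between tissues more than between genotypes of a tissue.

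**Figure D1:**
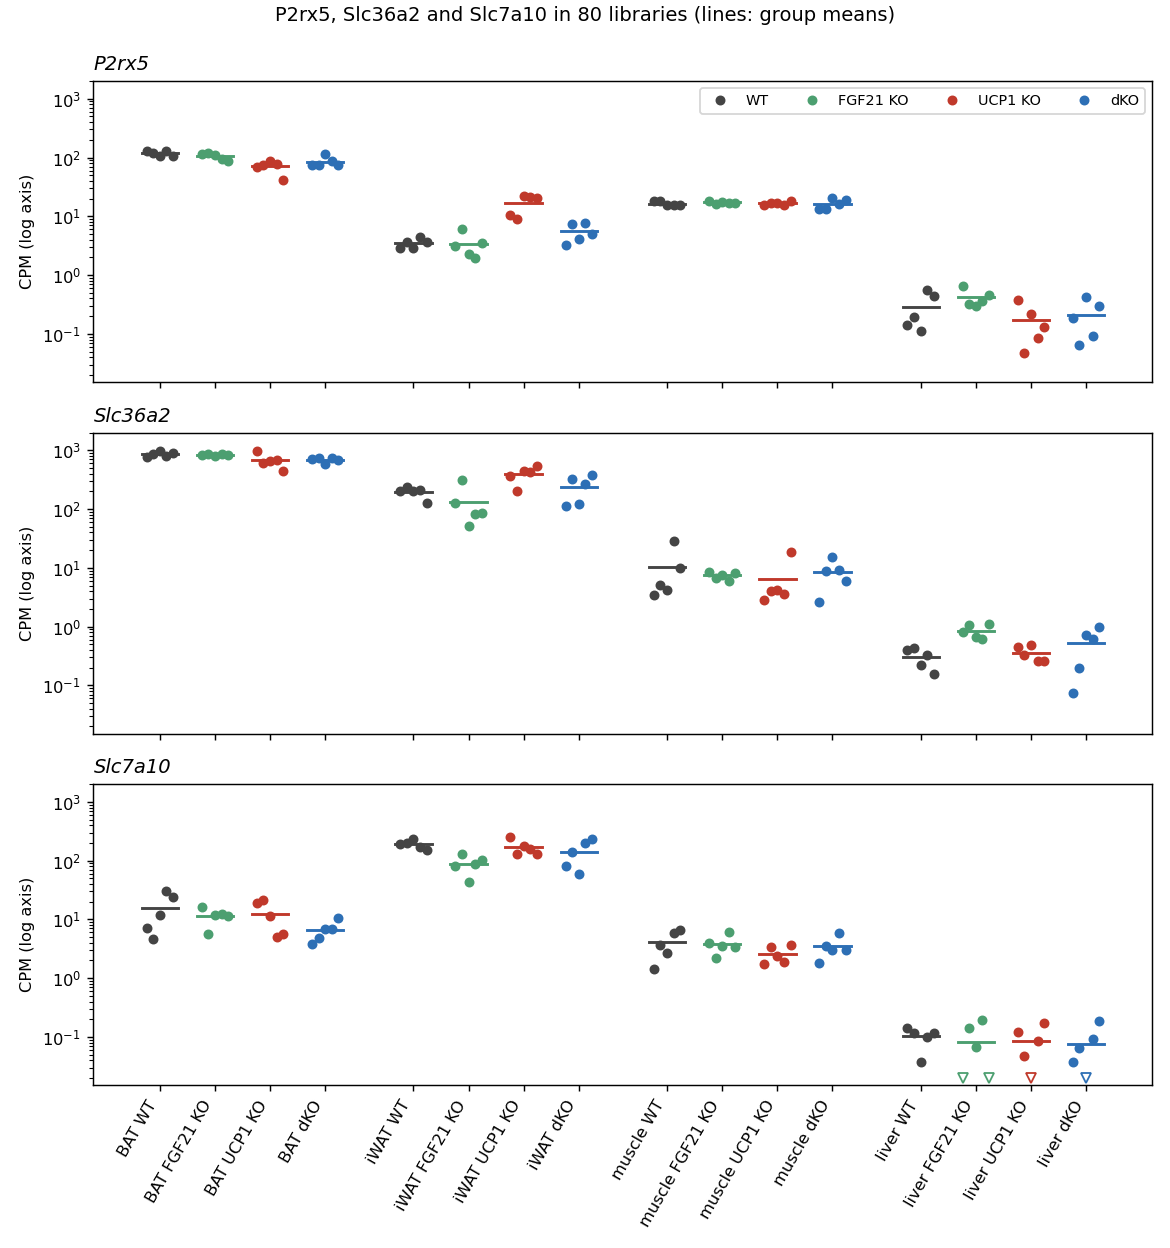
Level of each gene in all 80 libraries, in CPM on a log axis, by tissue and genotype. Each dot is a library, the lines are means of 5 libraries, and open triangles at the bottom are libraries with 0 counts. P2rx5 in iWAT of UCP1 KO mice (9.06 to 22.5 CPM) lies above every other iWAT library, and Slc7a10 is the gene with its highest values in iWAT.

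In WT mice P2rx5 was 32.5-fold higher in BAT than in iWAT (log2 difference 5.02, SE 0.29, edgeR adjusted p = 6.62e-16) and Slc36a2 was 4.27-fold higher (log2 2.10, SE 0.33, edgeR adjusted p = 1.42e-06). Slc7a10 was 12.5-fold lower in BAT than in iWAT (log2 -3.64, SE 0.47, edgeR adjusted p = 2.99e-08). The size of these differences depended on the scaling and the model more than their direction did. Without the trimmed mean scaling the mean levels in WT BAT and iWAT were 112 and 5.57 CPM for P2rx5, 813 and 304 CPM for Slc36a2 and 14.9 and 298 CPM for Slc7a10. With the lymph node score in the model the log2 differences were 4.61, 1.43 and -4.04 in that order. The 5 BAT and the 5 iWAT libraries did not overlap for any of the genes. Depots differ in many genes, since 52.7% of the 17441 genes tested passed the same threshold (adjusted p under 0.01) and 54.2% had libraries that did not overlap, so passing is not particular to these genes, and bulk tissue cannot tell fewer cells of a type from less RNA per cell. Zic1, a gene of classical brown fat, was present in BAT and near 0 in iWAT, as the depot labels say. In FGF21 KO mice the log2 differences were 4.91, 2.60 and -2.99 for P2rx5, Slc36a2 and Slc7a10 in that order, and all passed, as did 63.1% of genes. In dKO mice they were 3.89, 1.49 and -4.47, and all passed, as did 54.9% of genes.

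The gap between the depots was smallest in UCP1 KO mice for P2rx5 and Slc36a2. There P2rx5 was 2.08 log2 units higher in BAT than in iWAT (SE 0.26, edgeR adjusted p = 4.56e-08, libraries not overlapping), whereas 37% of genes passed the threshold and 30% had libraries that did not overlap. Slc36a2 was 0.77 log2 units higher in BAT (SE 0.32), with overlapping libraries and an edgeR adjusted p of 0.0432, which did not pass. Slc7a10 kept a large difference of -3.78 log2 units in UCP1 KO mice (SE 0.47, edgeR adjusted p = 4.96e-08).

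Of the 3 genes, P2rx5 alone was called when iWAT of UCP1 KO and WT mice was compared. Its levels in WT iWAT were 2.86, 3.63, 2.84, 4.51 and 3.65 CPM. In UCP1 KO iWAT they were 10.5, 9.06, 22.5, 20.9 and 20.2 CPM, so that the lowest UCP1 KO library was above the highest WT library. This is a 4.70-fold increase with a 95% interval from 2.87 to 7.70 (log2 2.23, SE 0.34, edgeR adjusted p = 0.00277). An exact two-sided permutation test of these 10 libraries gave p = 0.00794, the smallest that 5 against 5 allows. Only 0.61% of the 17380 genes tested passed this threshold and 3.83% had libraries that did not overlap. Without WT replicate 1, 2 or 3 the call was lost, at an adjusted p of 0.0127 to 0.0157, with log2 differences of 2.16 to 2.25. Among iWAT libraries with a low lymph node score the values were 10.5 to 22.5 CPM in 4 UCP1 KO and 2.84 to 3.63 CPM in 3 WT libraries. The log2 difference was then 2.54, with no call given because 1 FGF21 KO library was left in that fit. P2rx5 is also read in muscle, and with the skeletal muscle score in the model the difference was 2.23 (edgeR adjusted p = 0.00369). UCP1 KO replicate 1, the iWAT library with the highest muscle score, was at 10.5 CPM, and replicates 3, 4 and 5, at 22.5, 20.9 and 20.2 CPM, had muscle scores of 1.34, 1.13 and 3.97.

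In dKO iWAT P2rx5 was at 3.27, 7.34, 4.12, 7.82 and 5.08 CPM, and all 5 UCP1 KO libraries were above these as well. The UCP1 KO level was 1.59 log2 units above that of dKO (SE 0.33), which missed the threshold with an edgeR adjusted p of 0.0189. Of all genes, 0.466% passed in this comparison and 2.09% had libraries that did not overlap. The comparison passed with DESeq2 (log2 1.58, adjusted p = 0.000129) and without UCP1 KO replicate 2, the UCP1 KO library with a high lymph node score (log2 1.75, edgeR adjusted p = 0.00414). It did not pass in 14 of 18 alternatives, with an adjusted p of up to 0.0638 when single libraries were left out and of 0.112 when only these groups were fitted. In FGF21 KO iWAT P2rx5 was at 3.07, 6.05, 2.28, 1.98 and 3.45 CPM, with 1 library above the WT range and 2 below it. UCP1 KO was 2.29 log2 units above FGF21 KO (SE 0.34, edgeR adjusted p = 0.000812), with no overlap, where 3.76% of genes passed and 4.02% did not overlap. The dKO level was 0.64 log2 units above WT (edgeR adjusted p = 0.856) and 0.70 above FGF21 KO, and neither passed. Among libraries with a low lymph node score, however, the 3 dKO libraries (5.08 to 7.82 CPM) and the 1 FGF21 KO library (6.05 CPM) were all above the 3 WT libraries (2.84 to 3.63 CPM). This separation is given without a test and without the share of all genes that separate in so few libraries. Over all 20 iWAT libraries, dKO against WT called 0.0173% of genes and dKO against FGF21 KO 0.0115%. The interaction term, the UCP1 KO effect on an Fgf21 wildtype background minus that on an Fgf21-deficient background, was 1.53 log2 units for P2rx5 (SE 0.46, edgeR adjusted p = 0.280). No gene passed in that term with edgeR (0%), though 1734 genes had an unadjusted p under 0.05 and DESeq2 called 62.

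Slc36a2 was at 203, 233, 199.6, 210.4 and 128 CPM in WT iWAT and at 368, 202, 444, 419 and 545 CPM in UCP1 KO iWAT. Replicate 2 of UCP1 KO lay within the WT range and the other 4 lay above it. The mean was 2.01-fold that of WT (log2 1.01, SE 0.44), which did not pass (edgeR adjusted p = 0.276, unadjusted p = 0.0397 in the exact two-sided permutation test). Slc36a2 was lower in libraries with the lymph node genes in each genotype except for an overlap in WT, where the values were 128 and 210.4 CPM with and 199.6 to 233 CPM without these genes. Among the libraries with a low score, UCP1 KO was at 368 to 545 CPM (n = 4) and WT at 199.6 to 233 CPM (n = 3). The difference was then 1.04 log2 units, with no call given because 1 FGF21 KO library was left in that fit. The 3 dKO libraries of this kind were at 266 to 384 CPM, between both and overlapping UCP1 KO, and the single FGF21 KO library was at 310.0 CPM. Over all libraries dKO was at 112, 323, 122, 266 and 384 CPM and FGF21 KO at 127, 310.0, 52.4, 81.9 and 85.5 CPM. UCP1 KO was 0.71 log2 units above dKO (edgeR adjusted p = 0.499) and 1.57 above FGF21 KO (SE 0.44, edgeR adjusted p = 0.0300), and neither passed.

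Slc7a10 was at 192, 199, 237, 174 and 149.9 CPM in WT iWAT and at 251.8, 129, 180.1, 156 and 128 CPM in UCP1 KO iWAT. The groups overlapped and the log2 difference was -0.18 with a 95% interval from -0.89 to 0.52 (edgeR adjusted p = 0.900). In dKO iWAT Slc7a10 was at 79.4, 139, 58.8, 200.01 and 229 CPM. In FGF21 KO iWAT it was at 79.8, 127, 43.3, 89.1 and 103 CPM, below every WT library. This difference of -1.11 log2 units (SE 0.34) did not pass (edgeR adjusted p = 0.236), in a comparison where 0.00575% of genes passed and 2.71% had libraries that did not overlap. Of the FGF21 KO libraries, 4 carried the lymph node genes, at 43.3 to 103 CPM of Slc7a10, and the one without them was at 127 CPM, against 192 to 237 CPM in the 3 WT libraries without them.

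**Figure D2:**
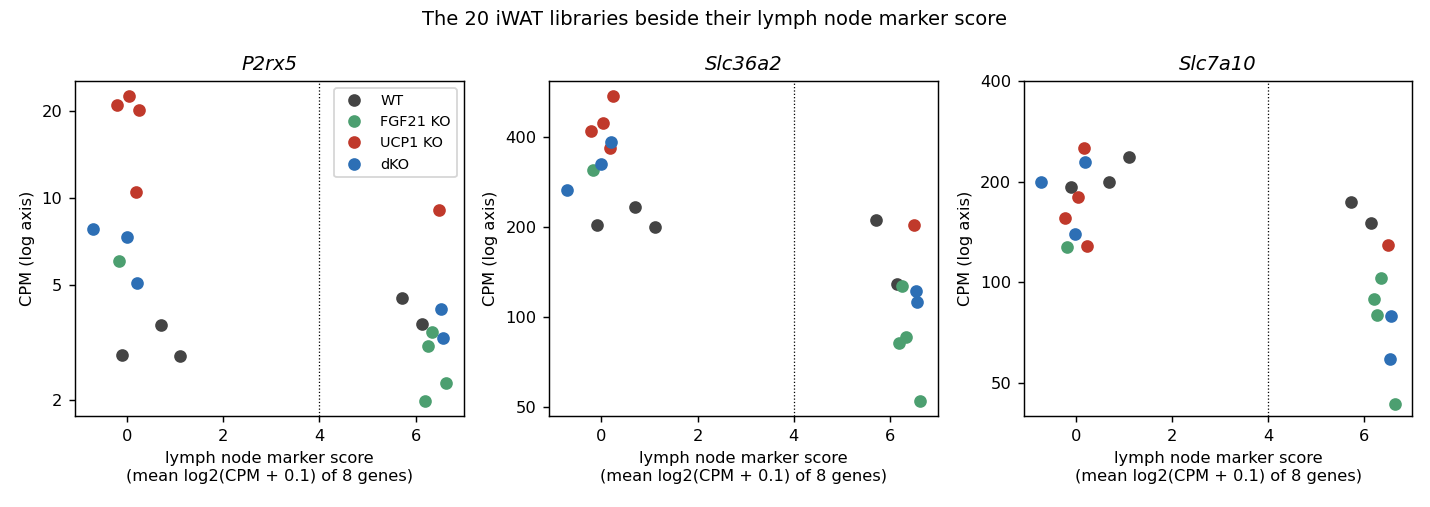
Level of each gene in the 20 iWAT libraries (CPM, log axis) against the lymph node marker score of the same library (mean log2 of CPM plus 0.1 over 8 genes). Each dot is a library, coloured by genotype, and the dotted line marks the score of 4. To the left of it Slc36a2 is at 368 to 545 CPM in UCP1 KO and at 199.6 to 233 CPM in WT, and P2rx5 in UCP1 KO is above the other genotypes on both sides.

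In BAT the direction of P2rx5 was the reverse. WT libraries were at 127, 117, 106, 129 and 106 CPM and UCP1 KO libraries at 69.7, 74.9, 87.2, 78.2 and 42.2 CPM, with no overlap. P2rx5 was 40.2% lower in UCP1 KO than in WT BAT (log2 -0.74, SE 0.16, edgeR adjusted p = 0.00132). This is a common outcome in that comparison, as 25.2% of the 15729 genes tested passed and 23.5% had libraries that did not overlap. In muscle tissue P2rx5 was at 13.2 to 20.5 CPM, below every BAT library (42.2 to 129 CPM). In the 2 UCP1 KO BAT libraries with a low skeletal muscle score it was at 42.2 and 69.7 CPM. The 3 with a high score were at 74.9 to 87.2 CPM. Among BAT libraries with a low muscle score the log2 difference was -1.05, with no call given because 1 dKO library was left in that fit. The pan-adipocyte genes moved as well, with 3 of 8 lower in UCP1 KO BAT (Adipoq, Cfd and Lipe) and a score of 8.89 to 9.81 against 9.84 to 10.28 in WT. The score of 8.89 was that of the library with P2rx5 at 42.2 CPM. With that score in the model the difference was -0.50 and no longer passed (edgeR adjusted p = 0.162). The score did not overlap between UCP1 KO and WT, so this fit cannot separate the genotype from adipocyte content. Macrophage genes were higher at the same time, with 4 of 5 passing. The part of these cells in the P2rx5 difference was not tested.

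P2rx5 in dKO BAT was at 74.2, 74.4, 113, 85.9 and 73.6 CPM and in FGF21 KO BAT at 116, 121, 110.5, 92.8 and 86.2 CPM. UCP1 KO was 0.58 log2 units below FGF21 KO (SE 0.16, edgeR adjusted p = 0.00756), where 22.4% of genes passed. The highest UCP1 KO library, at 87.2 CPM, was level with the lowest FGF21 KO library, at 86.2 CPM. With the scaling of the BAT fit they did not overlap, as in 20.5% of genes. The dKO level was 0.48 log2 units below WT (SE 0.16, edgeR adjusted p = 0.0244), with 21.1% of genes passing, and 0.32 below FGF21 KO (edgeR adjusted p = 0.137), with 13.5% passing. UCP1 KO and dKO differed by -0.26 log2 units (edgeR adjusted p = 0.500) and 0.0636% of genes passed between them. FGF21 KO and WT differed by -0.16 log2 units, and edgeR called no gene in that comparison (0%), with 1345 genes at an unadjusted p under 0.05 and 30 called by DESeq2. The interaction term was -0.42 (SE 0.22, edgeR adjusted p = 0.905) and edgeR called no gene there either, with 845 at an unadjusted p under 0.05 and 1 called by DESeq2.

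Slc36a2 in BAT was at 762, 857, 958, 791 and 897 CPM in WT and at 982, 614, 650.0, 686 and 449 CPM in UCP1 KO mice. Replicate 1 of UCP1 KO was above all WT libraries and the other 4 were below them. The difference of -0.34 log2 units (SE 0.14) did not pass (edgeR adjusted p = 0.0612), where 25.2% of genes passed. Without that library it was -0.52 and passed (edgeR adjusted p = 0.000949), in a fit whose share of genes passing is not given. With the pan-adipocyte score in the model the direction turned, at 0.024 (edgeR adjusted p = 0.945), in a fit that cannot separate that score from the genotype. In dKO BAT Slc36a2 was at 704, 752, 583, 746 and 679 CPM, below all WT libraries and below all FGF21 KO libraries, which were at 825, 851, 787, 866 and 831 CPM. Neither difference passed, at -0.30 log2 units against WT (edgeR adjusted p = 0.101) and -0.27 against FGF21 KO (edgeR adjusted p = 0.168). Libraries that did not overlap were common there, in 24.8% and 18.6% of genes.

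Slc7a10 in BAT varied several-fold within genotypes. It was at 7.25, 4.73, 11.9, 30.6 and 23.6 CPM in WT, at 18.7, 21.5, 11.3, 5.06 and 5.62 CPM in UCP1 KO, at 3.80, 4.75, 6.82, 6.78 and 10.5 CPM in dKO and at 16.2, 5.71, 12.0, 12.6 and 11.4 CPM in FGF21 KO libraries. All genotypes overlapped, and no comparison passed. UCP1 KO against WT was -0.33 log2 units (SE 0.47, edgeR adjusted p = 0.607), and its direction turned without WT replicate 4 (0.070). It also turned with the pan-adipocyte score in the model (1.72, edgeR adjusted p = 0.0143), a fit that cannot separate that score from the genotype. The dKO values were the lowest on average, 1.26 log2 units below WT (SE 0.48, edgeR adjusted p = 0.0474).

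**Figure D3:**
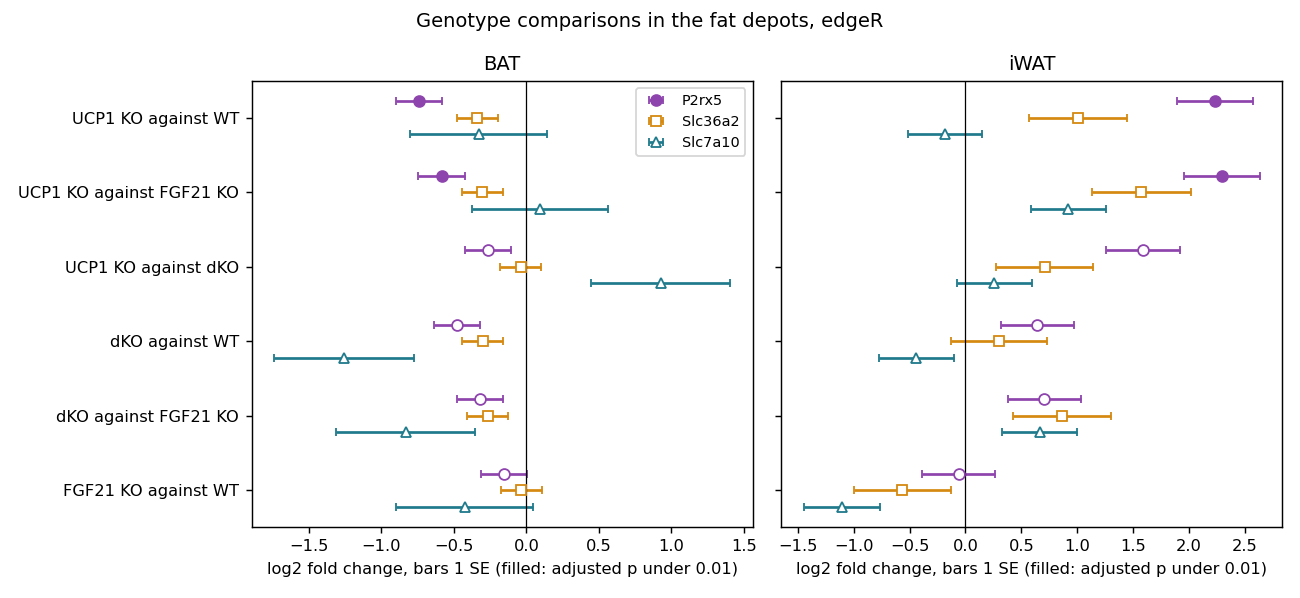
Log2 fold change of each gene between pairs of genotypes in BAT and in iWAT, with bars of 1 SE from edgeR and filled symbols for an adjusted p under 0.01. P2rx5 is the gene with filled symbols, at -0.74 and -0.58 in BAT and at 2.23 and 2.29 in iWAT for UCP1 KO against WT and against FGF21 KO.

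The response to UCP1 deficiency was compared between the depots in a model over the 40 fat libraries. For P2rx5 the UCP1 KO minus WT difference in BAT minus that in iWAT was -2.95 log2 units (SE 0.36, edgeR adjusted p = 2.17e-06), a term in which 6.19% of genes passed. For Slc36a2 it was -1.33 (SE 0.45, edgeR adjusted p = 0.0455) and did not pass, and for Slc7a10 it was -0.14 with a 95% interval from -1.35 to 1.07. On the Fgf21-deficient background the same term was -1.02, -1.12 and -1.48 for P2rx5, Slc36a2 and Slc7a10 in that order, with edgeR adjusted p of 0.0646, 0.107 and 0.111, and 1.93% of genes passed. Set against WT BAT, iWAT of UCP1 KO mice held 14.2% of the P2rx5 level, up from 2.99% in WT iWAT, and 46.4% of the Slc36a2 level, against 22.9% in WT iWAT. Without the trimmed mean scaling the shares were 20.2% and 66.1% in UCP1 KO iWAT and 4.99% and 37.4% in WT iWAT. It remained 7.01-fold below WT BAT for P2rx5 (edgeR adjusted p = 1.09e-10) and 2.14-fold below for Slc36a2 (edgeR adjusted p = 0.00413), and it lay 3.46 log2 units above it for Slc7a10 (edgeR adjusted p = 1.23e-07), where 44% of genes passed.

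Ratios of counts within a library do not depend on the scaling between libraries. The log2 ratio of P2rx5 to Slc7a10 in iWAT had a median of -5.78 in WT (from -6.38 to -5.27) and of -3.00 in UCP1 KO (from -4.59 to -2.67), with no overlap. It was -4.60 in dKO (from -5.50 to -3.84) and -4.70 in FGF21 KO (from -5.49 to -4.25), and both overlapped WT and UCP1 KO. In BAT the medians were between 2.91 and 3.97, so that every BAT library held more P2rx5 than Slc7a10 counts and every iWAT library fewer. The ratio of Slc36a2 to Slc7a10 in iWAT was 0.08 in WT (from -0.25 to 0.28), 1.30 in UCP1 KO (from 0.55 to 2.09) and 0.74 in dKO (from 0.41 to 1.22). In FGF21 KO mice it was 0.27 (from -0.27 to 1.29), overlapping WT and UCP1 KO. All UCP1 KO and all dKO libraries were above the WT libraries in this ratio. Between P2rx5 and Slc36a2, the iWAT ratio was -6.00 in WT and -4.48 in UCP1 KO mice, against -2.87 in WT BAT. The ratios use the same counts as the levels and are given as a description, with no share of other gene pairs that do not overlap.

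**Figure D4:**
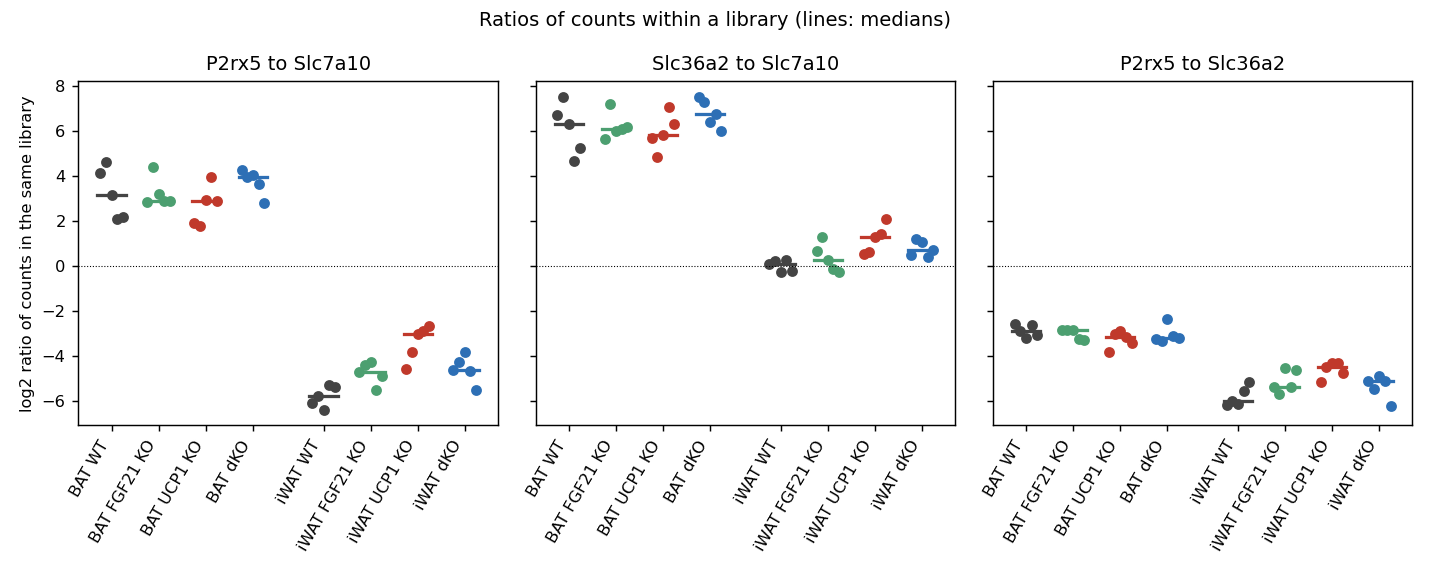
Log2 ratio of the counts of 2 genes in the same library, for P2rx5 to Slc7a10, Slc36a2 to Slc7a10 and P2rx5 to Slc36a2, in BAT and iWAT of the 4 genotypes. Dots are libraries and lines are group medians. For P2rx5 to Slc7a10 the iWAT medians are -5.78 in WT and -3.00 in UCP1 KO, and all BAT libraries lie above 0.

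In muscle P2rx5 was steady, at 13.2 to 20.5 CPM over all 20 libraries, with no difference called among genotypes (edgeR adjusted p = 0.911 for any difference, 0.086% of genes passing). UCP1 KO and WT differed by 0.01 log2 units with a 95% interval from -0.19 to 0.21. Slc36a2 in muscle ranged from 2.66 to 28.9 CPM, with the highest values in WT replicate 4 (28.9 CPM), UCP1 KO replicate 5 (18.3 CPM) and dKO replicate 3 (15.4 CPM). Slc7a10 in muscle ranged from 1.46 to 6.65 CPM. Neither was called different among genotypes (edgeR adjusted p = 0.864 and 0.624), though their intervals were wide. UCP1 KO was at 0.64-fold of WT for both, with 95% intervals from 0.28 to 1.45 for Slc36a2 and from 0.38 to 1.07 for Slc7a10. Over the 20 muscle libraries Slc36a2 followed the pan-adipocyte score (Pearson r = 0.872, Spearman rho = 0.869, both permutation p = 1e-05, adjusted over 3 genes 1.5e-05), and so did Slc7a10 (r = 0.842, rho = 0.842, both permutation p = 1e-05, adjusted 1.5e-05). The p-values are the smallest that the resampling can give, and without the 2 libraries farthest from the median score r was 0.817 and 0.804. P2rx5 did not follow it detectably (r = 0.337, permutation p = 0.15, rho = 0.275, permutation p = 0.24, the same after adjustment over 3 genes, and r = 0.455 without the 2 farthest). Within single genotypes, each with 5 muscle libraries and too few for a test, r ranged from -0.051 to 0.988 for Slc36a2, from 0.69 to 0.93 for Slc7a10 and from -0.56 to 0.98 for P2rx5.

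In liver P2rx5 had 1 to 17 counts and Slc36a2 2 to 31 counts per library. The genotypes were not called different (edgeR adjusted p = 0.545 for P2rx5 and 0.284 for Slc36a2, with 0.34% of genes passing). Slc36a2 was at 0.624 to 1.10 CPM in FGF21 KO and at 0.158 to 0.433 CPM in WT liver, a log2 difference of 1.44 that did not pass (edgeR adjusted p = 0.333).

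Among the other P2X receptors, P2rx3, P2rx6 and P2rx5 were higher in BAT than in iWAT of WT mice and P2rx4 and P2rx7 were lower, so that 5 of 7 passed where 52.7% of all genes did. In log2 units P2rx3 differed by 1.45, P2rx6 by 1.36, P2rx4 by -0.63 and P2rx7 by -1.99, all less than the 5.02 of P2rx5. In iWAT of UCP1 KO against WT mice P2rx5 was the 1 of 7 tested P2X genes that passed, against 0.61% of all genes. P2rx6, the closest to it there, differed by 0.75 (SE 0.39, edgeR adjusted p = 0.399). In BAT 4 of 6 tested P2X genes passed, against 25.2% of all genes, with P2rx5 and P2rx1 (log2 -0.69) lower and P2rx3 (0.75) and P2rx4 (0.46) higher in UCP1 KO mice. Of the G protein-coupled P2Y receptors, 2 of 7 tested rose in UCP1 KO BAT, P2ry6 by 1.10 and P2ry14 by 1.07 log2 units, a share near the 25.2% of all genes. Among 7 tested genes of ATP release and breakdown, Panx1, a channel through which cells release ATP, rose by 1.14 and the adenosine receptor gene Adora2b by 1.97, again a share near that of all genes. Macrophage genes rose in the same comparison (4 of 5, median 1.37 log2 units), and their part in the changes of the P2X, P2Y and ATP genes was not tested. In iWAT none of the 7 tested P2Y genes and none of the 8 genes of ATP release and breakdown passed, where 0.61% of all genes did.

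The other proton-coupled carriers did not share the pattern of Slc36a2. Slc36a1 differed by -0.15 log2 units between BAT and iWAT of WT mice (edgeR adjusted p = 0.193) and Slc36a4 was lower in BAT by 0.99, while Slc36a2 was higher. None of the 3 tested SLC36 genes in BAT or the 4 in iWAT passed between UCP1 KO and WT mice, where 25.2% and 0.61% of all genes did. Slc36a1, which shares some sequence with Slc36a2, was at 28.0 CPM in UCP1 KO and 26.0 CPM in WT BAT.

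The relatives of Slc7a10 moved in BAT, where Slc7a10 itself was not called. Of 12 tested SLC7 genes and heavy chains, 7 rose and 1 fell in UCP1 KO BAT, with a median of 1.21 log2 units. In the same comparison 4 of 5 macrophage genes rose (median 1.37), 4 of 10 skeletal muscle genes rose (median 4.74) and 3 of 8 pan-adipocyte genes fell (median -0.33), and their part in the changes of the amino acid genes was not tested. Over all genes 25.2% passed, 2169 up and 1796 down, with a median of 0.01. Slc7a5, the large neutral amino acid carrier LAT1, rose by 5.003 log2 units (SE 0.36, edgeR adjusted p = 2.98e-08), from 0.351 to 11.5 CPM. Slc7a11, the cystine carrier xCT, rose by 5.21 (SE 0.63, edgeR adjusted p = 7.06e-06), from 0.0407 to 1.72 CPM. Its WT level was near 0, so it met the count filter through other groups and the size of its fold is imprecise. The cationic amino acid carrier Slc7a1 rose by 2.22, Slc7a8 by 1.66, Slc3a2 by 1.41, and Slc7a4 and Slc7a7 by 1.09 each, while Slc7a6 fell by 0.82. Slc3a2, the partner of Asc-1, went from 48.5 CPM in WT to 129 CPM in UCP1 KO BAT. Among 9 tested carriers of small neutral amino acids outside this family, 5 rose and none fell, led by the glycine carrier Slc6a9 at 2.55 and by Slc38a3 at 2.37 log2 units, with Slc1a4 at 1.90, Slc38a1 at 1.40 and Slc38a2 at 0.76, against the same 25.2% of all genes. Of 9 genes of serine and glycine metabolism, 4 rose (Psat1 by 2.53, Phgdh by 1.38, Psph by 0.58 and Shmt2 by 0.56, enzymes of serine synthesis and of serine to glycine conversion) and 3 fell (Amt by 0.94 and Gcsh by 0.64, parts of glycine cleavage, and Srr by 0.33, serine racemase), so that 7 of 9 passed against 25.2% of all genes. In iWAT none of the 13 SLC7, 10 neutral carrier and 9 serine and glycine genes passed between UCP1 KO and WT mice, and none passed between UCP1 KO and dKO BAT. With 0.61% and 0.0636% of all genes passing in these comparisons, such counts of 0 are near the background. For dKO against FGF21 KO BAT, 5 SLC7 genes rose and 1 fell, with a median of 0.76, where 13.5% of all genes passed. There 1 of 5 macrophage and 1 of 8 lymph node genes rose and 2 of 8 pan-adipocyte genes fell. The skeletal muscle genes had a median of 4.09 with none called. Their part in the SLC7 changes was not tested.

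**Figure D5:**
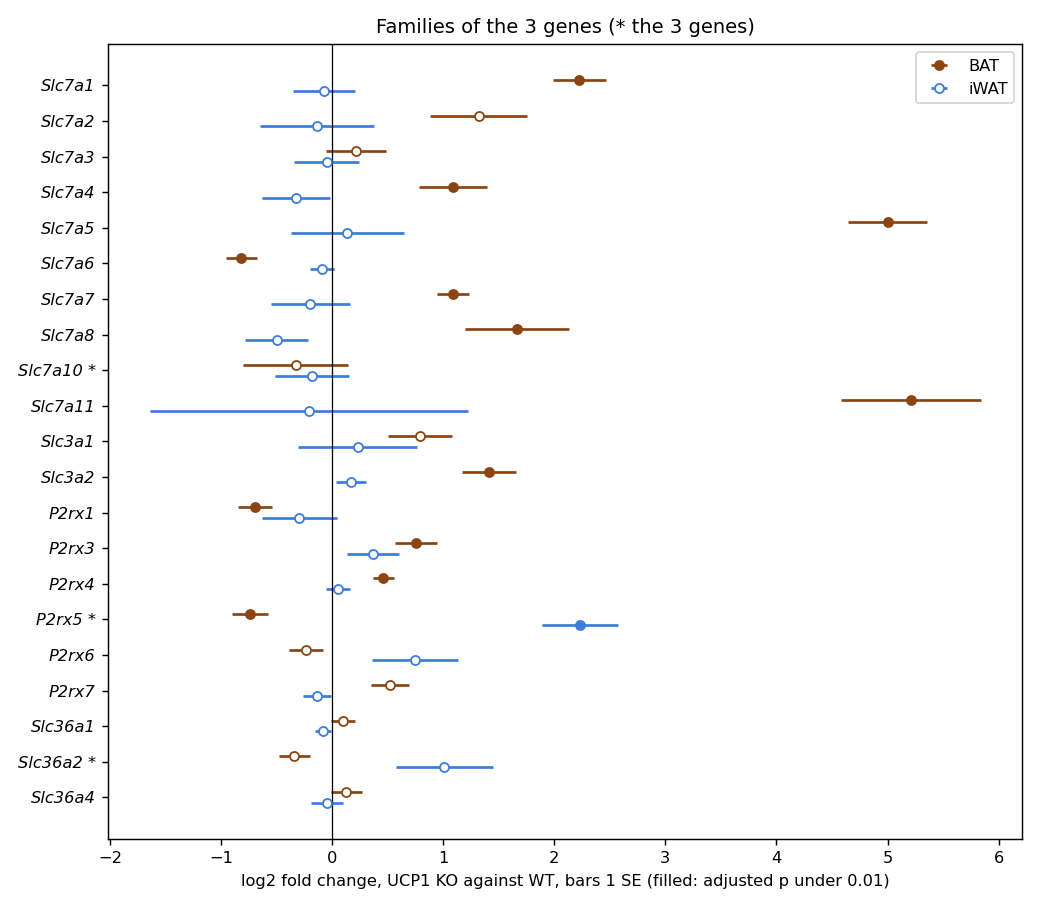
Log2 fold change of UCP1 KO against WT in BAT (brown) and iWAT (blue) for the SLC7, P2X and SLC36 genes tested in both depots, with bars of 1 SE from edgeR and filled dots for an adjusted p under 0.01. P2rx5 is the filled gene in iWAT at 2.23. In BAT Slc7a5 reaches 5.003 and Slc7a11, from a WT level near 0, 5.21. Slc7a10 lies at -0.33 in BAT, a value whose sign turns without WT replicate 4. It also turns with the pan-adipocyte score in the model, which cannot be separated from the genotype there.

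The marker lists place these values among other adipocyte genes. In iWAT of UCP1 KO against WT mice, 4 of 11 tested brown adipocyte genes rose (Cidea by 4.90, Cox7a1 by 3.56, Dio2 by 4.67 and Elovl3 by 8.39 log2 units) and Lhx8 fell, against 0.61% of all genes (103 up and 3 down). None of 7 beige and 6 white adipocyte genes passed, which is near that background. The brown adipocyte score was 3.18 to 4.98 in UCP1 KO, 1.55 to 2.19 in WT, 1.11 to 2.79 in dKO and 0.17 to 2.10 in FGF21 KO iWAT, so UCP1 KO libraries stood apart in it as they did for P2rx5. Between BAT and iWAT of WT mice 11 of 12 brown genes were higher in BAT and 6 of 6 tested white genes were lower. Of 7 beige genes 5 were lower in BAT and none was higher (median -3.05), opposite to P2rx5 and Slc36a2. In this comparison 52.7% of all genes passed in either direction.

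The genes whose log2 CPM was most like that of P2rx5 over the 40 fat libraries were Acaa2, Ndufv1, Cox5a, Fam210a and Gpd2, with Pearson r from 0.988 to 0.989. Acaa2 is an enzyme of mitochondrial fatty acid oxidation, Ndufv1 and Cox5a are subunits of respiratory complexes I and IV, and Gpd2 is the mitochondrial glycerol-3-phosphate dehydrogenase. Within the 20 iWAT libraries their r was 0.920 to 0.939 and within the 20 BAT libraries 0.595 to 0.809. The lowest r were those of Gnai2 (-0.977), Man1a (-0.972) and Man2b1 (-0.972). For Slc36a2 the most alike were Aspa and Prkaca (both 0.988), Tmlhe (0.986) and Aifm2 (0.985), and the least alike Nup107 (-0.957), Rpl4 (-0.956) and Arrdc1 (-0.956). Prkaca encodes the catalytic subunit of protein kinase A and Aspa an enzyme that splits N-acetylaspartate. For Slc7a10 they were Ffar2 (0.985), Retn (0.984), Opn3 (0.984), Adcy5 (0.982) and Trf (0.974), of which Retn encodes the adipokine resistin and Ffar2 a receptor for short-chain fatty acids. For Ffar2 r within BAT was 0.889 and within iWAT 0.874. The least like Slc7a10 were Rabif (-0.950), Gramd1c (-0.941) and Zic4 (-0.931). Among the 3 genes themselves, r over the 40 libraries was 0.926 for P2rx5 and Slc36a2, -0.833 for P2rx5 and Slc7a10 and -0.657 for Slc36a2 and Slc7a10. Within a depot the last 2 were positive, at 0.250 and 0.345 in BAT and 0.347 and 0.704 in iWAT. The libraries share their depot, genotype and cell mixture, and the correlations are a description over libraries of 2 tissues.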

How the data were processed

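RNA from BAT, iWAT, muscle and liver was sequenced as 100 bp paired-end reads from stranded poly(A) libraries. The deposited values are raw counts per gene symbol, which the authors made by aligning reads with STAR to mm10 and counting with HTSeq on UCSC known genes. A row of reads with no gene name was dropped. Depth was 30298958 to 49898441 counts per BAT, 33654057 to 44726921 per iWAT, 35078383 to 50380704 per muscle and 28691379 to 41371512 per liver library, and no libraries had identical counts.

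Groups followed the labels. Each tissue was fitted with 1 model over 4 genotypes with the quasi-likelihood F test of edgeR 4.0.16 (R 4.3.3), with TMM normalisation and Benjamini-Hochberg adjustment over all genes tested. Genes needed a maximum above 15, a sum above 75 and at most 10 libraries at 0 (20 in the fit over both fat depots), and were called at an adjusted p under 0.01. DESeq2 1.42.0, RLE factors, no filter, marker scores as covariates, subsets and leaving out libraries were the alternatives. The test was also run on simulated counts with the same spread for every gene and no mixture of tissues, and its outcome is not given here. Scores are means of log2(CPM + 0.1), and correlations used log2 CPM with a prior count of 2. The exon lengths and positions came from GENCODE on GRCm38, and the promoter from RefSeq, where 1 of the 3 genes matched.

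The text names the 3 genes, related genes that were called or are the closest relatives, and for each gene the 5 most and 3 least correlated genes, of which 1 is not reported here. Members and lists were chosen with earlier results of these data known. Comparisons of genotypes share their control libraries.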

Additional observations from a re-analysis of the deposited data

Results flagged for a closer look

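In groups of 5 libraries, 3 sets held a single value whose gap to the next was above 0.71 of the whole range, out of 48 sets of 5 libraries (3 genes in 16 groups). Such a rule picks about 1 in 20 sets by chance. All 3 were of Slc36a2. In iWAT of FGF21 KO mice replicate 2 was at 310.0 CPM and the next at 127 CPM, a gap of 0.711 of the range, and it was the library of that group without lymph node genes. In muscle of WT mice replicate 4 was at 28.9 CPM and the next at 10.0 CPM (0.741 of the range). In muscle of UCP1 KO mice replicate 5 was at 18.3 CPM and the next at 4.23 CPM (0.912 of the range).

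The difference of P2rx5 between UCP1 KO and WT mice went in opposite directions in BAT and iWAT, and the term for BAT minus iWAT was -2.95 log2 units (SE 0.36, edgeR adjusted p = 2.17e-06).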

How the results depend on the processing

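No paired analysis was possible because the labels carry no replicate numbers or animal identities that link libraries across groups. The differences between BAT and iWAT of WT mice kept their direction and call in 17 of 17 alternatives for each gene. P2rx5 in iWAT, UCP1 KO against WT, kept its direction in all 18 alternatives and its call in 14. Fitting only the groups compared gave 2.24 (edgeR adjusted p = 0.0149), and leaving out single libraries gave 2.09 to 2.39. Against dKO it passed in 4 of 18 alternatives. These were DESeq2 (1.58), the lymph node score (1.48) or the pan-adipocyte score (1.42) as a covariate, and the fit without UCP1 KO replicate 2 (1.75). At an adjusted p under 0.05, which is not counted among the 18, it passed as well (1.59). It ranged from 1.45 to 1.75 when single libraries were left out. Slc36a2 in iWAT passed against WT with the pan-adipocyte score (1.02) and differed by 1.04 among libraries with a low lymph node score. Slc7a10 in iWAT against dKO changed sign in the latter (-0.10). In BAT with the pan-adipocyte score as a covariate, UCP1 KO against WT was -0.50 for P2rx5, no longer passing, 0.024 for Slc36a2 and 1.72 for Slc7a10, both with the sign reversed and neither passing (edgeR adjusted p = 0.945 and 0.0143). That score did not overlap between UCP1 KO and WT BAT, so these fits cannot separate it from the genotype. Leaving out single BAT libraries gave -0.52 to -0.22 for Slc36a2 and -0.63 to 0.070 for Slc7a10, the latter without WT replicate 4, and -0.21 to 0.080 for Slc36a2 against dKO, the last value without UCP1 KO replicate 5. The causes were not tested. The subset of BAT libraries with a low skeletal muscle score was chosen after seeing the data. DESeq2 called 597, 535 and 1573 genes in iWAT for UCP1 KO against WT, dKO and FGF21 KO, against 106, 81 and 653 with edgeR. Without TMM scaling 34 of 48 group levels stayed within 1 SD. Liver values rest on 0 to 31 counts per library, which limits their precision.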
